A study of Mus musculus with 9 samples.

Results

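Integrins and extracellular matrix genes were followed in Hepa1-6 cells, a mouse hepatoma line, after treatment with lefamulin or its pleuromutilin analogue tiamulin. The members were all protein-coding genes whose symbols follow the pattern for integrin chains, laminin chains, collagens, fibrillins, fibulins, fibronectin, vitronectin, thrombospondins, nidogens or tenascin C. This rule, which used no measured value, found 95 of the 56748 genes in the deposited tables, namely 25 integrins, 11 laminins, 44 collagens and 15 other matrix glycoproteins. RNA-Seq libraries came from 3 groups of 3. The control group is described as having no treatment in the sample labels and as a vehicle control in the methods of the paper, and the drug groups received 37 µg/ml lefamulin or 37 µg/ml tiamulin. All groups were the same cell line. The labels give 2 days of treatment for the drug groups and no time for the control group. The drugs were matched by mass and not by molar concentration. No source used here says whether the libraries of a group came from separate cultures, so the p values below measure only the spread between libraries, which may be technical.

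Integrins are transmembrane receptors made of an alpha and a beta chain, and the pair decides which matrix protein is bound. Laminins are trimers of an alpha, a beta and a gamma chain that form the basement membrane together with the network collagens, nidogens and perlecan. Fibronectin and the thrombospondins are secreted glycoproteins that integrins bind, and collagens are triple-helical proteins that range from fibril-forming chains to network and anchoring forms. In liver tumors these genes govern adhesion of the tumor cells to their surroundings.

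Total counts per library lay between 15568887 and 18008105. Tiamulin replicate 2 stood apart, since the chi-square per degree of freedom between its counts and those of the other tiamulin libraries was 16.3 and 18.6, against 2.79 to 6.91 for all other pairs within a group. Its deviation from the group mean followed the GC content of the genes with Spearman's rho of 0.71 across 9584 genes, which are not independent replicates. Other libraries deviated with GC content too, at rho of 0.523 and -0.512 in control replicates 1 and 2 and -0.56 and -0.599 in tiamulin replicates 1 and 3, while control replicate 3 and the lefamulin libraries lay between -0.159 and 0.195. The controls enter both comparisons of a drug with control. It was kept, and counts without it are given beside those with it. The hepatoma genes Alb (mean of 207 FPKM in control), Afp (284) and Hnf4a (75.2) were expressed, whereas Ttr (0.0156) and Apoa1 (0.214) were near 0 and Serpina1a was listed at 0. Of the 14 hepatocyte or hepatoma genes 9 exceeded 1 FPKM, and their sum was 1739 to 1873 FPKM in control, 1674 to 1757 with lefamulin and 1796 to 2162 with tiamulin. Of 12 fibroblast or stellate cell markers 2 exceeded an average of 1 FPKM, Dcn and Pdgfra, and their summed level was 255 to 270 FPKM in control, 195 to 203 with lefamulin and 180 to 195 with tiamulin, almost all of it Dcn, while Fap was listed at 0. The 9 endothelial markers, with Emcn and Lyve1 at 0, together reached 0.304 to 0.355 FPKM in control, 0.765 to 0.814 with lefamulin and 0.625 to 0.894 with tiamulin. The 14 blood cell markers, of which Cd3e, Cd3g and Adgre1 were at 0 and Cd68 was the most abundant, reached 10.1 to 10.8, 12.8 to 18.2 and 13.8 to 17.7 FPKM. The part of these markers in the results below was not tested.

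The matrix and receptor repertoire of control cells was narrow. Only 29 of the 95 members had a mean above 1 FPKM, a unit that corrects for gene length and so allows levels of different genes to be compared. Fn1, encoding fibronectin, led with 432 ± 16.1 FPKM (SD, n = 3) and took between 43.7% and 50.9% of all member counts in every library. Among the alpha chains Itga3, a laminin receptor chain, was highest at 187 ± 15.9 FPKM, and among the beta chains Itgb1, the most widely shared beta chain, at 164 ± 4.1 FPKM. The control libraries spanned 170 to 202 FPKM for Itga3 and 159 to 167 FPKM for Itgb1, without overlap. Next came the collagen receptor chain Itga2 with 57.2 FPKM, the RGD receptor chain Itgav with 52.5 FPKM and the laminin receptor chain Itga6 with 50.6 FPKM. Among secreted members Thbs1 (43.5 ± 4.29 FPKM), Nid1 (32 ± 0.654 FPKM), Lama5 (28.4 ± 2.53 FPKM), Col8a1 (27.4 ± 1.19 FPKM) and Lamc1 (25.9 ± 1.12 FPKM) followed, and the control spreads of Lama5, Col8a1 and Lamc1 overlapped. The highest collagen of the basement membrane network was Col4a1 with 19.8 ± 2.63 FPKM, of the microfibrillar type Col6a1 with 7.53 ± 1.09 FPKM, and of the fibrillar type Col27a1 with 3.26 ± 0.387 FPKM. The classical fibrillar collagens of fibroblasts were nearly silent, with a mean of 0.0515 FPKM for Col1a1 in control and at most 2 counts for Col1a2 and 1 count for Col3a1 in any library. Fbln1 (4.79 ± 0.175 FPKM) was the highest of the fibrillins and fibulins.

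**Figure D1:**
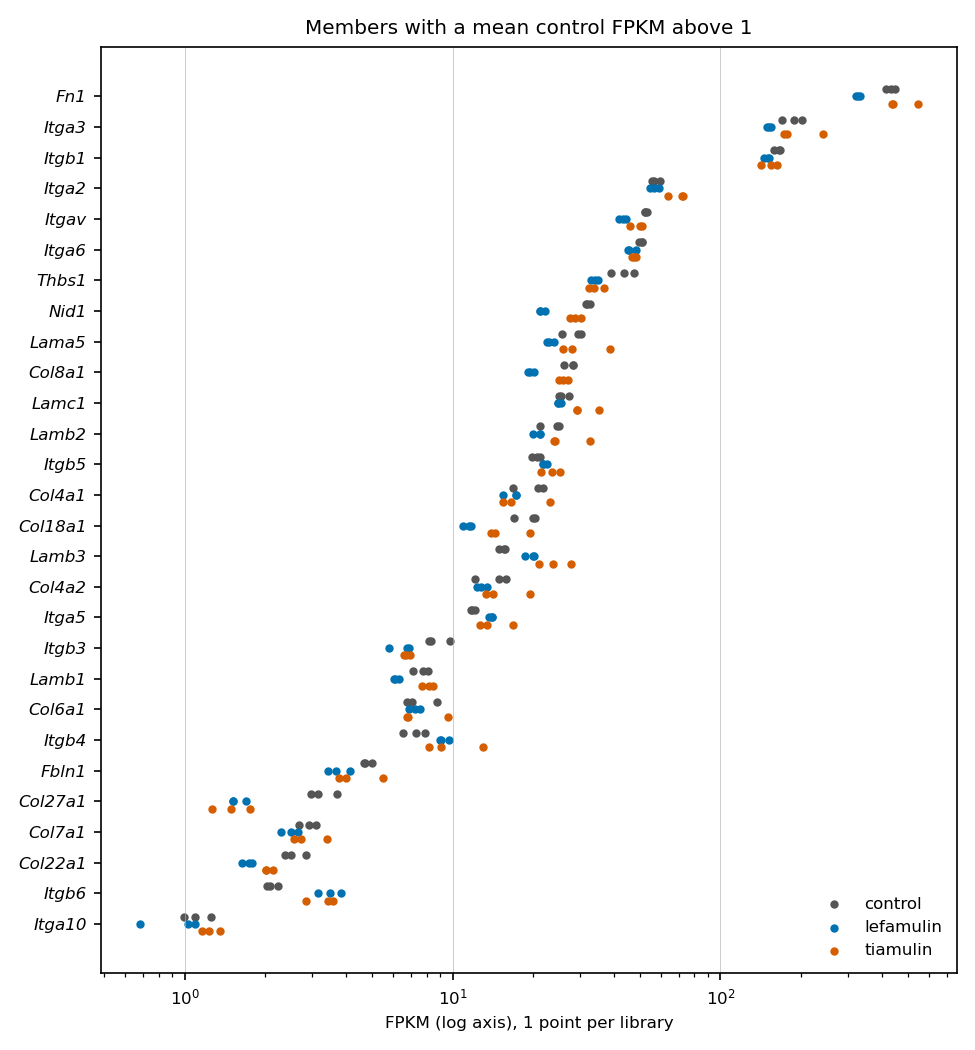
FPKM (log axis) of 28 of the members with a mean control FPKM above 1, with 1 point per library, grey for control, blue for lefamulin and orange for tiamulin. Fn1 is highest in every group, and the lefamulin points of Fn1, Nid1, Col8a1 and Col18a1 lie left of both other groups.

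Of the 95 members, 49 had enough counts to be tested, namely 16 integrins, 6 laminins, 18 collagens and 9 glycoproteins. The remaining 46 had at most 17 counts in any library, 20 of them had 3 counts or fewer in every library, and Col11a1, Itga9, Fbln7 and Thbs4 had 0 counts in all 9. A count of 0 allows up to 3 counts per library, so absence of these transcripts cannot be stated. The integrins of leukocytes were among them: Itgal, Itgam, Itgax and Itgb2 had at most 7, 3, 1 and 4 counts. Vtn, encoding the integrin ligand vitronectin that hepatocytes secrete, had 0 counts in 8 libraries and 4 in tiamulin replicate 3.

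A member was called when edgeR's quasi-likelihood test gave a Benjamini-Hochberg adjusted p value below 0.05 over all 14510 tested genes, and it was a DEG when its absolute log2(fold change) was also above 1. Lefamulin changed 17 of the 49 tested members (34.7%), 7 higher and 10 lower, against 13.1% of all tested genes (7.09% higher, 6% lower). Tiamulin changed 16 (32.7%), 11 higher and 5 lower, against 16.4% of all tested genes (9.08% higher, 7.34% lower). Directly compared, tiamulin and lefamulin differed in 7 members (14.3%), and each of the 7 was higher under tiamulin. Over all tested genes 4.9% differed, 2.85% higher and 2.05% lower under tiamulin. The median log2(fold change) of the tested members was -0.18 under lefamulin, 0.04 under tiamulin and 0.09 for tiamulin against lefamulin, while the medians of all tested genes were 0. DEGs were few, 5 higher and 1 lower under lefamulin and 4 higher and 1 lower under tiamulin, where the shares over all tested genes were 1.51% (0.979% higher, 0.531% lower) and 1.78% (1.05% higher, 0.731% lower). The 3 libraries of a drug lay wholly above control in 11 members and wholly below in 21 under lefamulin, against 18.9% and 18.8% (37.6% together) of all tested genes. Under tiamulin these were 13 above and 12 below, against 17.1% and 15.2% (32.3% together). The filter asked for 0.607 CPM in at least 3 libraries, and Fbn1, Col6a5 and Itgb7 reached that value in no control library. These 3 were tested only because they were high with drug, so their values are descriptions. They make up 3 of the 17 calls and 3 of the 5 higher DEGs under lefamulin, and 2 of the 16 calls and 2 of the 4 higher DEGs under tiamulin. Of the 44 members that reached it in every control library, 14 were called under lefamulin and 14 under tiamulin. Without tiamulin replicate 2, lefamulin changed 29 members (9 higher, 20 lower), tiamulin 18, and the drugs differed in 12. These were 56.9%, 35.3% and 23.5% of the members tested, where the same fit called 24.9%, 23.1% and 8.79% of all tested genes. In a fit that included GC and length offsets, 25, 22 and 12 members were called (51%, 44.9% and 24.5%), against 23.8%, 27% and 13.1% of all tested genes.

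Both drugs raised 6 members against the shared controls (12.2% of those tested, where 4.46% of all tested genes were called higher under both), among them the laminin chain Lamb3, the integrin chains Itgb6 and Itga7, the microfibrillar collagen Col6a5 and the fibrillin Fbn1. Col6a5 and Fbn1 were tested only because they were high with drug. The 12.2% counts both, so it is not read as a result about the members. Both lowered 4 (8.16%, against 3.03% of all tested genes), the fibrillar collagen Col27a1, the collagen Col22a1, the integrin chain Itgb3 and the thrombospondin Thbs1. In this fit, no member rose under one drug and fell under the other. Only 0.0414% of all tested genes did so, hence this is no result about the members. A further 7 members (14.3%, against 5.56% of all tested genes) were called only in lefamulin against control and 6 (12.2%, against 8.89%) only in tiamulin against control, which does not by itself show a difference between the drugs. The 7 include Itgb7, which was likewise tested only because it was high with drug.

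**Figure D2:**
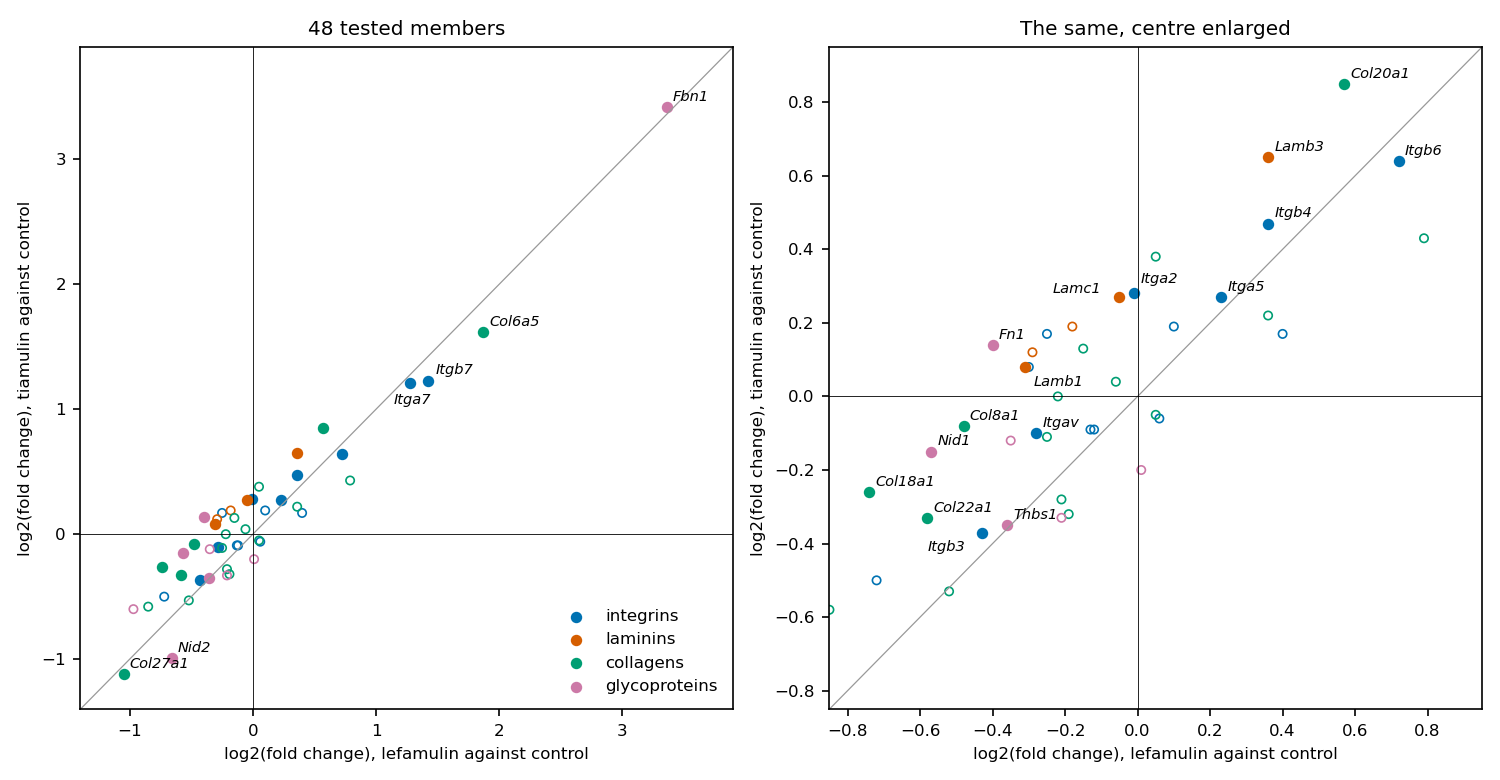
log2(fold change) of 48 tested members under lefamulin (x axis) and under tiamulin (y axis), both against the same 3 control libraries, with the centre enlarged at right. Colors give the family, filled points were called in at least 1 of the 3 comparisons, and the line marks equal values. Fbn1, Col6a5, Itgb7 and Itga7 lie far right and high, Col27a1 and Nid2 low, and Fn1, Lamb1, Nid1, Col8a1 and Col18a1 above the line.

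The stretches upstream of 3 genes are shown, 1 for each main pattern: Lamb3 was raised by both drugs, Col27a1 was lowered by both, and Nid1 fell under lefamulin and was higher under tiamulin than under lefamulin. Each is the 190 bases from 250 to 61 before a start site of the gene in RefSeq (build GRCm38.p6, plus strand, 5′ to 3′). Capitals mark matches to the 3 motifs searched on both strands, which are the AP-1 motif TGANTCA, the TEAD motif GGAATG and the GC box GGGCGG, and no match overlaps another in these stretches. For Lamb3 the more upstream of its 2 RefSeq windows is shown.
Lamb3, chr1:193301744-193301933: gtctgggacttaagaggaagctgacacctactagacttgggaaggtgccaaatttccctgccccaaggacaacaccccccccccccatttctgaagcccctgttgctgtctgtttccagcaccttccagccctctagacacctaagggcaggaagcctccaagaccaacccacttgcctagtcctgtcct
Col27a1, chr4:63215162-63215351: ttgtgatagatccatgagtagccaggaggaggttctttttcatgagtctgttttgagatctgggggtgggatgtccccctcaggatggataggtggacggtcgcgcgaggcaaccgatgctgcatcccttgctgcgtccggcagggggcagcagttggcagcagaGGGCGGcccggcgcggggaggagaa
Nid1, chr13:13437352-13437541: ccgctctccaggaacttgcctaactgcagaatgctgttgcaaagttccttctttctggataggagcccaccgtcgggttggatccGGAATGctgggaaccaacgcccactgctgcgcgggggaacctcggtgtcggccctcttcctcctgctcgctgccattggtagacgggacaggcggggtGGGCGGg
The Lamb3 stretch holds none of the 3 motifs, whereas the other Lamb3 window (chr1:193301993-193302292) holds 1 TEAD motif, the Col27a1 stretch holds 1 GC box, and the Nid1 stretch holds 1 TEAD motif and 1 GC box. RefSeq windows of 300 bases, reaching 250 before and 50 after the start, were found for 68 members, 33 of them tested. The AP-1 motif was in 0 of 10 windows of members raised by a drug and in 0 of 7 windows of members lowered, against 7.81% of all 32851 windows in the table. The TEAD motif was in 2 of the 10 and 2 of the 7, against 14.7% of all windows. GC boxes were in 4 of the 10 and 6 of the 7, against 64.1% of the windows of tested members and 35.7% of all windows. These matches only describe the letters in the windows.

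Among the 6 tested laminins, 2 rose and 1 fell under lefamulin, and 3 rose under tiamulin, where the share of all tested genes called was 13.1% and 16.4%. Lamb3 encodes a beta chain that joins the alpha chain Lama3 in the epithelial laminin of hemidesmosomes. Values in CPM below are counts scaled to TMM library sizes, which compare libraries and not genes of different length. Lamb3 measured 103, 98.6 and 104 CPM in control, 133, 134 and 124 with lefamulin and 158, 184 and 140 with tiamulin. The 3 groups did not overlap and rose in this order. Lamb3 changed by 0.36 ± 0.08 on the log2 scale (± SE here and below, adjusted p = 0.011) under lefamulin and 0.65 ± 0.08 (adjusted p = 9.18e-05) under tiamulin. Leaving out lefamulin replicate 1 or 2 brought the adjusted p under lefamulin to 0.0542 and 0.0593. Between the drugs Lamb3 differed by 0.30 (95% interval 0.12 to 0.47, adjusted p = 0.0509). The comparison passed the threshold without tiamulin replicate 2 (adjusted p = 0.0311). That library held the highest value of 184 CPM, so the 0.30 does not describe the fit without it. Lama3, the alpha chain of this trimer, had 5, 6 and 7 counts in control, 2, 6 and 4 with lefamulin and 4, 4 and 0 with tiamulin, too few to be tested.

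Other chains belong to the more widespread laminins. Lamc1, the common gamma chain (deposited position chr1:153094668-153208532, minus strand), measured 212, 208 and 226 CPM in control, 206, 212 and 206 with lefamulin and 244, 291 and 243 with tiamulin. All tiamulin libraries exceeded both other groups. Lamc1 rose under tiamulin by 0.27 ± 0.07 (adjusted p = 0.0169) and was 0.32 ± 0.07 higher than under lefamulin (adjusted p = 0.0205), whereas lefamulin against control gave -0.05 (adjusted p = 0.712). The first call was lost without control replicate 1 (adjusted p = 0.0628) or 2 (0.077), and the second without any 1 lefamulin library (0.0809 to 0.104). Lamb1, a beta chain that pairs with Lamc1, measured 80.7, 77.1 and 71 CPM in control, 60.3, 62.9 and 60.9 with lefamulin and 81.4, 83.9 and 76.5 with tiamulin. The lefamulin libraries lay below both other groups, which overlapped. Lamb1 fell under lefamulin by 0.31 on the log2 scale (SE 0.07, adjusted p = 0.00736), and tiamulin exceeded lefamulin by 0.39 ± 0.07 (adjusted p = 0.00518).

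Lama5, the most abundant alpha chain, and Lamb2, the other common beta chain, passed in no comparison by the edgeR fit used here. Both were called between the drugs with DESeq2, with no filter on low counts and with GC and length offsets (adjusted p = 7.60e-04 for Lama5 and 6.10e-04 for Lamb2 with the offsets). The offsets also called Lama5 under lefamulin (adjusted p = 0.00285) and Lamb2 under tiamulin (adjusted p = 0.0399). Lama5 measured 347, 292 and 338 CPM in control, 274, 259 and 264 with lefamulin and 320, 442 and 298 with tiamulin, with the highest value in tiamulin replicate 2. Its log2(fold change) was -0.29 under lefamulin (95% interval -0.56 to -0.03, adjusted p = 0.137), and without tiamulin replicate 2, a library of neither group, the fit gave -0.30 with an adjusted p of 3.25e-04. Lamb2 measured 130 to 152 CPM in control, 122 to 130 with lefamulin and 147 to 199 with tiamulin, and its difference between the drugs was 0.37 (95% interval 0.15 to 0.59, adjusted p = 0.0542). Tiamulin replicate 2 held the 199 CPM, and the other tiamulin libraries were at 148 and 147 CPM. Without replicate 2 the comparison between the drugs was called. Lama1, Lama2, Lama4 and Lamc3 had at most 9 counts in any library.

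**Figure D3:**
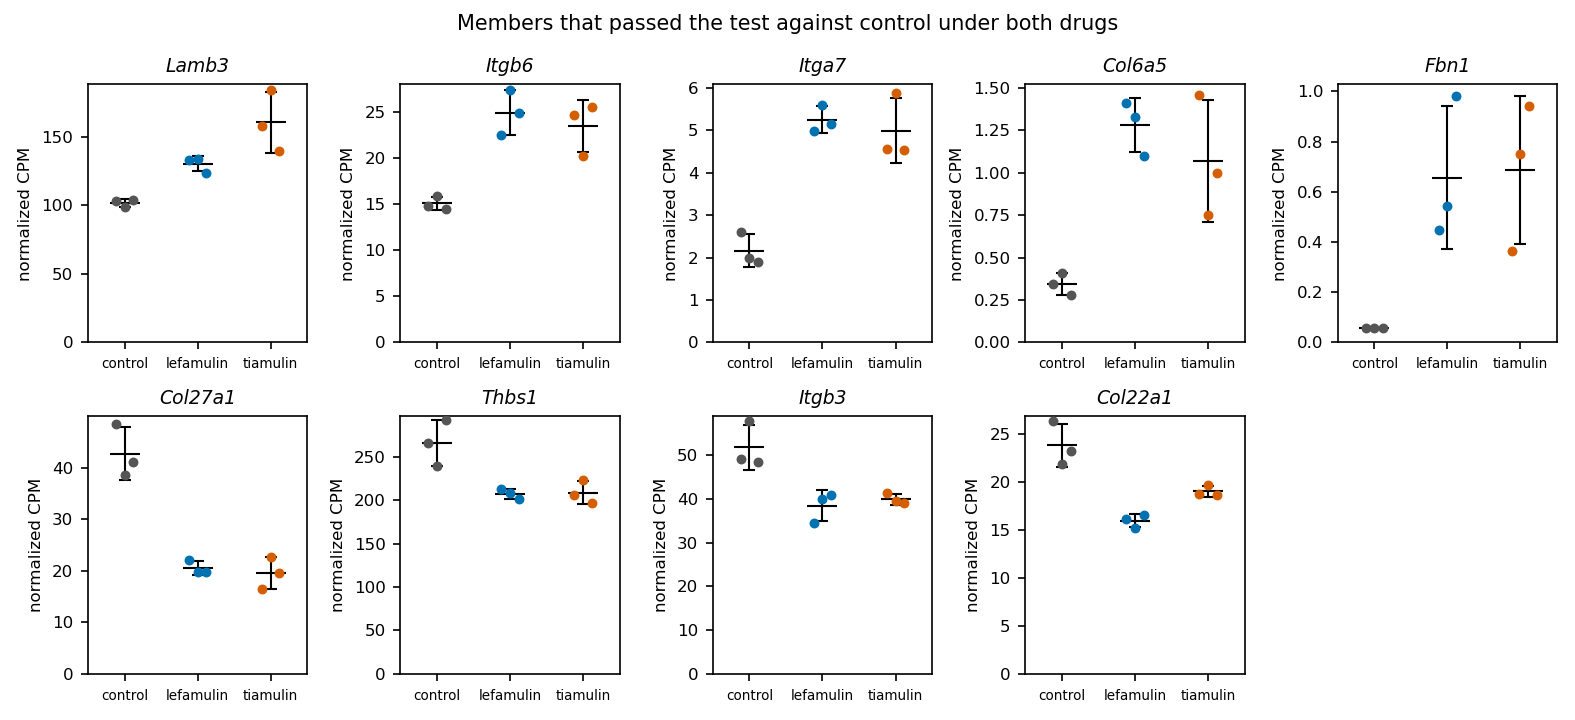
Normalized CPM per library (linear axes from 0) of 9 members called against control under both drugs. Points are libraries, horizontal marks the group mean and bars the SD (n = 3). Lamb3, Itgb6, Itga7, Col6a5 and Fbn1 lie higher in both drug groups and Col27a1, Thbs1, Itgb3 and Col22a1 lower, without overlap with control.

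Among the integrins, 3 of 16 tested chains rose and 2 fell under lefamulin (31.2% called), and 5 rose and 1 fell under tiamulin (37.5%). One that rose under lefamulin was Itgb7, tested only because it was high with drug, and without it 26.7% and 40% were called. Over all tested genes 7.09% rose and 6% fell under lefamulin, and 9.08% and 7.34% under tiamulin. Itgb6 encodes the epithelial beta chain that pairs with Itgav and binds the latent form of TGF-beta. It measured 14.8, 15.9 and 14.5 CPM in control, 22.5, 27.3 and 24.9 with lefamulin and 24.6, 20.2 and 25.5 with tiamulin. Both drug groups lay above every control library. The log2(fold change) was 0.72 ± 0.11 (adjusted p = 5.72e-04) under lefamulin and 0.64 ± 0.11 (adjusted p = 0.00111) under tiamulin, and the difference between them was -0.09 (95% interval -0.31 to 0.14).

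Its partner Itgav did not rise. Itgav measured 563, 562 and 575 CPM in control, 451, 467 and 478 with lefamulin and 551, 495 and 544 with tiamulin. Both drug groups lay below the controls. It fell under lefamulin by 0.28 on the log2 scale (SE 0.05, adjusted p = 0.00296), and tiamulin against control gave -0.10 (adjusted p = 0.245). The difference between the drugs was 0.19 (95% interval 0.07 to 0.30, adjusted p = 0.0609), and without tiamulin replicate 2 it passed (adjusted p = 2.34e-04).

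Itgb3, which pairs with Itgav in the vitronectin receptor, measured 49.1, 57.8 and 48.5 CPM in control, 34.4, 40 and 40.9 with lefamulin and 41.3, 39.5 and 39 with tiamulin. No drug library reached the lowest control. Itgb3 fell by 0.43 (SE 0.09, adjusted p = 0.00572) under lefamulin and by 0.37 (SE 0.09, adjusted p = 0.0101) under tiamulin, the latter with an adjusted p of 0.06 without control replicate 2. Itgb5, a further partner of Itgav, had 20.5 ± 0.751 FPKM in control and log2(fold change) values of 0.10 (adjusted p = 0.373) and 0.19 (adjusted p = 0.078), and the latter became a call without tiamulin replicate 1.

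Itga7 encodes an alpha chain known as a laminin receptor of muscle. It measured 2.6, 1.98 and 1.9 CPM in control, 4.98, 5.6 and 5.15 with lefamulin and 4.56, 5.87 and 4.53 with tiamulin. The groups treated with drug lay clear of control and overlapped each other. Itga7 was a DEG under both drugs, with log2(fold change) of 1.28 ± 0.19 (adjusted p = 5.41e-04) and 1.21 ± 0.19 (adjusted p = 6.45e-04), at a control level of only 0.264 FPKM.

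Itga2 encodes the alpha chain of a collagen receptor. It measured 405, 428 and 398 CPM in control, 407, 422 and 391 with lefamulin and 521, 456 and 515 with tiamulin. Only the tiamulin libraries stood apart. It rose under tiamulin by 0.28 ± 0.06 (adjusted p = 0.00572) and exceeded lefamulin by 0.29 ± 0.06 (adjusted p = 0.0153), while lefamulin against control gave -0.01 (95% interval -0.14 to 0.12). The difference between the drugs lost its call without tiamulin replicate 1 (adjusted p = 0.0531) or without any 1 lefamulin library (0.0504 to 0.0965). Itga1, another collagen receptor chain, had 1.44 to 2.88 CPM and was not called in any comparison.

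Itgb4 and Itga6 form the receptor of hemidesmosomes. Itgb4 measured 55.5, 46.2 and 51.4 CPM in control, 64, 68.7 and 63.6 with lefamulin and 64.2, 91 and 57.6 with tiamulin, with the highest value in tiamulin replicate 2. Every treated library exceeded the controls. It rose under tiamulin by 0.47 ± 0.13 (adjusted p = 0.0281), a call lost without control replicate 2 (0.106) or 3 (0.0785). Without tiamulin replicate 2 the value under tiamulin was 0.25 (adjusted p = 0.0141). For Itgb4, lefamulin gave 0.36 ± 0.13 (adjusted p = 0.101), which became a call without tiamulin replicate 2 (adjusted p = 2.21e-04) or 3. Itga6 measured 457, 469 and 468 CPM in control, 420, 444 and 416 with lefamulin and 438, 427 and 447 with tiamulin. Its log2(fold change) was -0.12 (adjusted p = 0.119) and -0.09 (adjusted p = 0.257), and the first was called without tiamulin replicate 2 (adjusted p = 0.0132).

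Itga5, the alpha chain of the classical fibronectin receptor, measured 59.8, 58.1 and 58.5 CPM in control, 68.1, 69.6 and 69.5 with lefamulin and 63.2, 82.9 and 66.8 with tiamulin. All treated libraries exceeded the controls. Tiamulin gave 0.27 ± 0.09 (adjusted p = 0.0471), a call lost when any library but tiamulin replicates 1 and 3 was left out (adjusted p between 0.073 and 0.139). Without tiamulin replicate 2 the Itga5 value under tiamulin was 0.14, and lefamulin against control, 0.23 ± 0.09 (adjusted p = 0.0958), became a call (adjusted p = 0.00265). Itgb1, the partner of Itga2, Itga3, Itga5 and Itga7, measured 653 to 686 CPM in control, 600 to 625 with lefamulin and 580 to 671 with tiamulin, with log2(fold change) of -0.13 (adjusted p = 0.154) and -0.09 (adjusted p = 0.297). Without tiamulin replicate 2, -0.13 was called (adjusted p = 0.00711). Itga3 measured 977 to 1159 CPM in control, 858 to 884 with lefamulin and 994 to 1382 with tiamulin, and its log2(fold change) under lefamulin of -0.30 ± 0.10 (adjusted p = 0.0791) was likewise called without that library (adjusted p = 5.79e-05).

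Itgb7, a beta chain of lymphocyte homing receptors, was at the edge of detection. Itgb7 measured 0.289, 0.407 and 0.559 CPM in control, 1.47, 0.964 and 0.981 with lefamulin and 0.913, 1.31 and 0.765 with tiamulin. The drug libraries lay above all controls. Counts were 5 to 10 in control and 13 to 23 with drug, so Itgb7 passed the filter only through the drug libraries and was not tested when at least 10 counts were required in every library. The fit gave 1.42 ± 0.41 (adjusted p = 0.035) under lefamulin and 1.23 ± 0.42 (adjusted p = 0.0579) under tiamulin. The call under lefamulin was lost when any 1 of the 6 control or lefamulin libraries was left out (adjusted p between 0.0589 and 0.14). Its partners Itga4 and Itgae were not called. Itga4 measured 3.98, 5.12 and 3.74 CPM in control, 3.13, 2.23 and 2.45 with lefamulin and 3.71, 2 and 3.36 with tiamulin, with a log2(fold change) of -0.72 (adjusted p = 0.0663) under lefamulin that was called without tiamulin replicate 2 (adjusted p = 0.0139). Itgae lay between 0.52 and 1.66 CPM in all libraries.

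Among the 18 tested collagens, 1 rose and 4 fell under lefamulin (27.8% called), and 2 rose and 2 fell under tiamulin (22.2%). The shares of all tested genes were 13.1% and 16.4%, so the share of collagens called under tiamulin was near that of all genes. These counts include Col6a5 among those that rose under each drug, a gene tested only because it was high with drug, and without it 23.5% and 17.6% were called. Col27a1, a fibrillar collagen best known from cartilage, measured 48.4, 38.6 and 41.1 CPM in control, 22.1, 19.8 and 19.8 with lefamulin and 16.5, 22.7 and 19.6 with tiamulin. The highest treated library was well below the lowest control. Col27a1 fell by 51.8% under lefamulin (log2(fold change) -1.05 ± 0.12, adjusted p = 4.19e-05). It fell by 54.1% under tiamulin (-1.12 ± 0.12, adjusted p = 1.80e-05), and it was the only member that was a DEG in the lower direction in either comparison. The drugs did not differ detectably in Col27a1, with a difference of -0.07 (95% interval -0.33 to 0.19).

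Col18a1, whose C-terminal fragment is endostatin, measured 144, 119 and 141 CPM in control, 82.5, 77.2 and 81 with lefamulin and 102, 137 and 98.4 with tiamulin. The lefamulin libraries lay below all others. It fell by 40.3% under lefamulin (-0.74 ± 0.11, adjusted p = 5.87e-04), and tiamulin exceeded lefamulin by 0.49 ± 0.11 (adjusted p = 0.025), a call lost without any 1 lefamulin library (0.0886 to 0.109). Without tiamulin replicate 2 this Col18a1 difference was 0.32 (adjusted p = 0.00288). Under tiamulin the Col18a1 value was -0.26 (adjusted p = 0.129) with tiamulin replicate 2, the highest at 137 CPM. Without that library, which left 102 and 98.4 CPM, the comparison was called (adjusted p = 2.28e-05). Col8a1, a short-chain network collagen of vessels and cornea, measured 221, 205 and 222 CPM in control, 158, 154 and 151 with lefamulin and 213, 196 and 203 with tiamulin. Again the lefamulin libraries alone stood apart. Col8a1 fell by 28.5% under lefamulin (-0.48 ± 0.06, adjusted p = 6.79e-05), and tiamulin exceeded lefamulin by 0.41 ± 0.06 (adjusted p = 0.00133), whereas tiamulin against control gave -0.08 (95% interval -0.20 to 0.04). Its partner chain Col8a2 had at most 3 counts in any library.

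Col22a1, a collagen of tissue junctions, measured 26.3, 21.9 and 23.2 CPM in control, 16.1, 15.2 and 16.5 with lefamulin and 18.7, 19.7 and 18.6 with tiamulin. The 3 groups did not overlap. It fell by 33.1% under lefamulin (-0.58 ± 0.09, adjusted p = 0.00104) and by 20.3% under tiamulin (-0.33 ± 0.09, adjusted p = 0.0271). The latter call was lost without control replicate 1 (0.127) or 3 (0.0666) or tiamulin replicate 1 (0.0778) or 3 (0.0728). Col20a1 measured 2.31, 1.57 and 1.68 CPM in control, 3, 2.89 and 2.39 with lefamulin and 3.59, 3.56 and 2.88 with tiamulin. Both drug groups lay above the controls, and tiamulin gave 0.85 ± 0.22 (adjusted p = 0.0179), which was lost without control replicate 2 (0.075) or 3 (0.076) or tiamulin replicate 1 (0.0602). Lefamulin gave 0.57 (adjusted p = 0.118).

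Col6a5, a chain that can take the place of the third chain in microfibrillar collagen, measured 0.346, 0.407 and 0.279 CPM in control, 1.41, 1.33 and 1.1 with lefamulin and 1.46, 0.75 and 1 with tiamulin. Counts were 5 to 7 in control and 12 to 24 with drug, so Col6a5 passed the filter only through the drug libraries. The fit gave 1.87 ± 0.40 and 1.62 ± 0.41 on the log2 scale, and with at least 10 counts required in every library Col6a5 was not tested. The abundant chain Col6a1 measured 29.7 to 38.6 CPM in control, 30.2 to 33.4 with lefamulin and 29.8 to 42.1 with tiamulin, and was not called. The paired genes of the basement membrane network were not called in this fit either. Col4a1 measured 163, 126 and 156 CPM in control, 129, 116 and 129 with lefamulin and 125, 172 and 115 with tiamulin, so the groups overlapped. Col4a2 gave log2(fold change) values of -0.15 (adjusted p = 0.51) and 0.13 (adjusted p = 0.554), against -0.25 (adjusted p = 0.267) and -0.11 (adjusted p = 0.663) for Col4a1. With GC and length offsets Col4a1 was called lower under both drugs, at -0.18 in each (adjusted p = 0.039 and 0.0357). The tiamulin values without tiamulin replicate 2 were -0.30 (adjusted p = 0.0864) for Col4a1 and -0.05 (adjusted p = 0.73) for Col4a2. The deposited positions of Col4a1 and Col4a2 overlap by 22 bases on opposite strands, and the strand setting of the counting is not given in the sources used here.

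Of the 9 tested glycoproteins, 1 rose and 3 fell under lefamulin and 1 rose and 2 fell under tiamulin (44.4% and 33.3% called, against 13.1% and 16.4% of all tested genes). The gene that rose in each comparison was Fbn1, tested only because it was high with drug, and without it 37.5% and 25% were called. Fn1 (chr1:71624679-71692359 as deposited, minus strand) measured 5246, 4869 and 5110 CPM in control, 3906, 3781 and 3844 with lefamulin and 5201, 6393 and 5157 with tiamulin. The lefamulin libraries were the lowest 3, and tiamulin replicate 2 was the highest of all. Fn1 fell by 24.3% under lefamulin (-0.40 ± 0.07, adjusted p = 0.00173), and tiamulin against control gave 0.14 ± 0.07 (adjusted p = 0.208). The latter was called with GC and length offsets (0.08, adjusted p = 0.029) and with no filter on low counts, but not with the offsets and the replicate block together. It was 0.03 (adjusted p = 0.606) without tiamulin replicate 2. Tiamulin exceeded lefamulin by 0.54 ± 0.07 (adjusted p = 9.48e-04), a call that remained without tiamulin replicate 2 (adjusted p = 1.21e-09). All members together took 1.02% to 1.1% of the counts in control, 0.871% to 0.882% with lefamulin and 1.05% to 1.25% with tiamulin. With Fn1 left out these shares were 0.534% to 0.573%, 0.486% to 0.49% and 0.54% to 0.613%. In bulk RNA, fewer cells of a kind and less RNA per cell cannot be told apart.

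Nid1, a linker between laminin and network collagen, measured 228, 219 and 222 CPM in control, 148, 148 and 154 with lefamulin and 201, 209 and 191 with tiamulin. The 3 groups did not overlap. It fell by 32.7% under lefamulin (-0.57 ± 0.05, adjusted p = 1.01e-05), and tiamulin exceeded lefamulin by 0.42 ± 0.05 (adjusted p = 9.48e-04). Under tiamulin the value for Nid1 was -0.15 ± 0.05 (adjusted p = 0.0701), which passed without tiamulin replicate 2 (adjusted p = 0.00407). Its relative Nid2 measured 3.98, 2.85 and 2.74 CPM in control, 1.73, 2.17 and 2.14 with lefamulin and 1.4, 1.81 and 1.59 with tiamulin. Nid2 fell by 49.7% under tiamulin (-0.99 ± 0.24, adjusted p = 0.0108), lost without control replicate 1 (adjusted p = 0.0605), and lefamulin gave -0.66 (adjusted p = 0.0772).

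Thbs1, a matricellular activator of latent TGF-beta, measured 266, 239 and 292 CPM in control, 213, 208 and 201 with lefamulin and 206, 223 and 197 with tiamulin. Both drug groups lay below the controls and overlapped each other. Thbs1 fell by 22% (-0.36 ± 0.07, adjusted p = 0.0046) under lefamulin and by 21.4% (-0.35 ± 0.07, adjusted p = 0.00421) under tiamulin, with a difference between drugs of 0.01 (95% interval -0.14 to 0.17). Fbn1, encoding the microfibril protein fibrillin, had 1 count in each control library. Summed counts were 3 in control, 32 with lefamulin and 34 with tiamulin, giving ratios of 11.5 (95% exact counting interval 3.6 to 58.7) and 12 (3.78 to 61.2). These intervals cover counting error only. Fbn1 passed the filter only through the drug libraries and was not tested when at least 10 counts were required in every library. It was not among the genes called by DESeq2 or by edgeR on only the 2 groups compared, under either drug. Fbln1 measured 20.5, 21.9 and 20.7 CPM in control, 15.1, 18.2 and 16.2 with lefamulin and 17.6, 24.1 and 16.5 with tiamulin. It was not called under lefamulin (-0.35, adjusted p = 0.0936) or tiamulin (-0.12, adjusted p = 0.601). Without tiamulin replicate 2, the highest at 24.1 CPM, both comparisons were called (adjusted p = 0.00743 and 0.0418). The -0.12 belongs to the fit with that library, and the remaining tiamulin libraries were at 17.6 and 16.5 CPM.

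**Figure D4:**
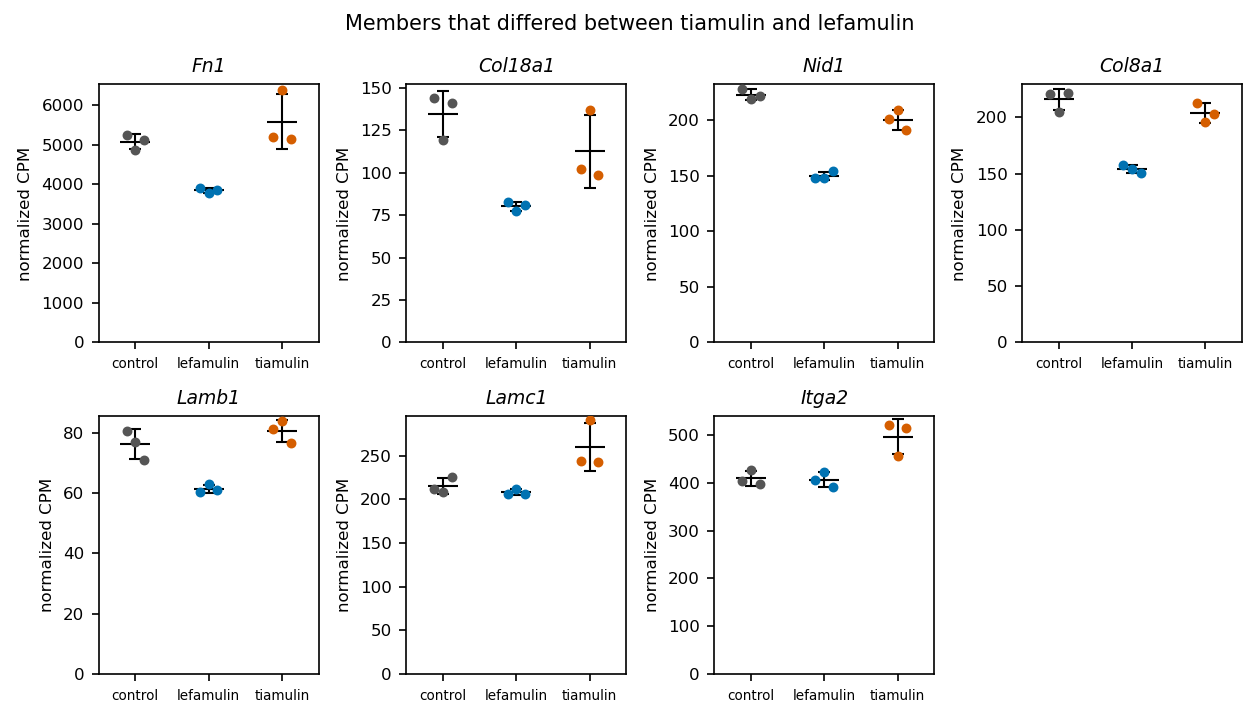
Normalized CPM per library (linear axes from 0) of the 7 members that differed between tiamulin and lefamulin, with points for libraries, horizontal marks for the mean and bars for the SD (n = 3). The lefamulin points of Fn1, Col18a1, Nid1, Col8a1 and Lamb1 lie below control, and those of Lamc1 and Itga2 overlap control while tiamulin lies above.

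Lefamulin and tiamulin share the tricyclic pleuromutilin core and differ in the side chain, an amino-hydroxycyclohexyl thioether in lefamulin and a diethylaminoethyl thioether in tiamulin. This pair of compounds was compared at the same mass dose and time, and p values were adjusted over all tested genes. The 7 differing members were Fn1, Col18a1, Nid1, Col8a1, Lamb1, Lamc1 and Itga2, with differences from 0.29 to 0.54 on the log2 scale, so none was a DEG, against 0.227% of all tested genes (0.0827% higher, 0.145% lower under tiamulin). Groups did not overlap in 14 of the 49 tested members with tiamulin higher and in 0 with tiamulin lower, while over all tested genes these shares were 13.6% and 12.9% (26.5% together). No member passed in the lower direction by edgeR, DESeq2 or limma, and 0 members had an unadjusted edgeR p under 0.05 in that direction, against 14 in the higher direction. The share of all tested genes at the unadjusted threshold is not given, so this split is only a description. The count of 7 was 4 when any 1 lefamulin library was left out, the 4 being Fn1, Nid1, Col8a1 and Lamb1. It was 12 without tiamulin replicate 2 and 11 without tiamulin replicate 3, with Lama5, Lamb2, Lamb3 and Itga3 gained in both.

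Genes around the integrins and the matrix were read from 5 lists of textbook genes. The shares called in each list stand against 13.1% of all tested genes under lefamulin, 16.4% under tiamulin and 4.9% between the drugs. In the fit without tiamulin replicate 2 those shares of all tested genes were 24.9%, 23.1% and 8.79%. For fits without another library they are not given, so list counts there only show how far the calls held. In the adhesome, the proteins that tie integrins to actin, 40 genes were tested. Lefamulin raised 2 and lowered 5 (17.5% called), tiamulin raised 4 and lowered 4 (20%), and 2 were higher under tiamulin than under lefamulin (5%). These shares were near those of all tested genes, so the counts are no result about the list, and the genes below are single genes. Lims2, an adaptor of the integrin-linked kinase complex, rose by 1.27 ± 0.17 under lefamulin and 1.20 ± 0.17 under tiamulin, and its relative Lims1 by 0.33 ± 0.08 and 0.52 ± 0.08. The focal adhesion protein Tns3 fell by 0.58 under lefamulin and fell by 0.54 under tiamulin. Enah, an actin regulator with 19 to 28 counts in control and at most 11 in any drug library, which passed the filter mainly through the controls, gave -1.79 ± 0.48 (adjusted p = 0.0234) and -1.47 ± 0.46 (adjusted p = 0.0411). Those Enah calls depended on single libraries. Nedd9, a scaffold protein of focal adhesions, gave -0.81 ± 0.22 (adjusted p = 0.0197) under tiamulin, lost without control replicate 2 (0.0512) or 3 (0.0714) or tiamulin replicate 1 (0.0693). For Enah under lefamulin, the adjusted p was 0.0618 to 0.102 without control replicate 2 or 3 or lefamulin replicate 1 or 2. For Enah under tiamulin, it was 0.0608 to 0.154 without any control library, lefamulin replicate 1 or tiamulin replicate 1 or 3. Lims1 under lefamulin was lost without control replicate 1 or 3 or lefamulin replicate 2 or 3 (0.0517 to 0.0824). The adhesome counts under lefamulin and tiamulin were 16 and 14 without tiamulin replicate 2, against 7 and 8 with it. That fit called more of all tested genes too, 24.9% and 23.1%. The adhesome counts were as low as 4 under lefamulin, without control replicate 3 or lefamulin replicate 2, and 5 under tiamulin, without control replicate 2 or 3. Lpp, a zyxin relative and 1 of the 2 that differed between the drugs, was 0.34 ± 0.07 higher under tiamulin (adjusted p = 0.0183). Neither of the 2 was called once any 1 lefamulin library was left out, and 7 and 8 were called without tiamulin replicates 2 and 3.

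Among the enzymes and chaperones of collagen biosynthesis, lefamulin lowered 5 of 18 tested genes and raised 0 (27.8% called). The number that rose was 0 also at an unadjusted edgeR p under 0.05 and by DESeq2 and limma. Tiamulin lowered 6 and raised 1 (38.9% called). Creb3l2, a transcription factor of secretory cargo, fell by 0.36 and 0.35, and Pcolce, an enhancer of procollagen processing, by 0.33 and 0.35. Adamts14, a procollagen peptidase, gave 0.44 ± 0.14 (adjusted p = 0.0383) under tiamulin, and this was not kept when any library but lefamulin replicate 1 and tiamulin replicate 3 was left out (0.0506 to 0.144). Pcolce under lefamulin had an adjusted p of 0.0535 without control replicate 3. No gene of this list was called between the drugs (0 by edgeR and limma, 1 by DESeq2, 3 at an unadjusted edgeR p under 0.05). Counts with 1 library left out ran from 3 to 8 under lefamulin (3 without control replicate 3, 8 without tiamulin replicate 2) and from 4 to 8 under tiamulin (4 without control replicate 1 or 3 or tiamulin replicate 1). Of all tested genes, 24.9% and 23.1% were called without tiamulin replicate 2.

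Matrix proteases and their inhibitors were a further list. Of 26 tested genes, lefamulin raised 9 and lowered 1 (38.5% called), tiamulin raised 9 and lowered 0 (34.6%), and 6 were higher under tiamulin than under lefamulin (23.1%). At an unadjusted edgeR p under 0.05, 2 were lower under tiamulin, and DESeq2 and limma called 0. Mmp10, a stromelysin, had 485, 541 and 492 counts in control, 823, 867 and 800 with lefamulin and 1066, 992 and 1056 with tiamulin. It rose by 0.82 ± 0.08 (adjusted p = 7.15e-06) and 1.12 ± 0.07 (adjusted p = 3.47e-07). The collagenase Mmp13, with 12730 to 13572 counts in control, rose by 0.67 ± 0.07 under lefamulin and 0.87 ± 0.07 under tiamulin, and the secreted metalloprotease Adamts1 by 0.89 ± 0.09 and 0.84 ± 0.09. Serpinb2, an inhibitor of plasminogen activators, fell by 0.91 under lefamulin, gave -0.17 (adjusted p = 0.421) under tiamulin, and was 0.73 ± 0.14 higher under tiamulin than under lefamulin. Mmp11 was 0.49 ± 0.13 higher under tiamulin than under lefamulin (adjusted p = 0.0486), a call lost when any library but tiamulin replicate 1 was left out (0.0653 to 0.189). The number differing between the drugs was 2 when any 1 lefamulin library was left out.

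Of 19 other matrix receptors and proteoglycans, 1 was higher and 5 were lower under lefamulin (31.6% called), and 1 was higher and 3 were lower under tiamulin (21.1%, near the 16.4% of all tested genes). Bcam, a receptor of the laminin chain Lama5, fell by 0.67 and 0.66. Dcn, the proteoglycan decorin, which is also one of the fibroblast markers above, fell by 0.42 under lefamulin and fell by 0.49 under tiamulin. Hspg2, encoding perlecan, gave -0.60 ± 0.15 (adjusted p = 0.0313) under lefamulin, lost without control replicate 1 or 3 or any lefamulin library (0.0579 to 0.09). Plaur, the urokinase receptor, which is listed with the proteases too, rose by 0.50 ± 0.07 and 0.65 ± 0.07. None differed between the drugs by edgeR or limma, where DESeq2 called 2 and 5 had an unadjusted edgeR p under 0.05. Without tiamulin replicate 2 the counts against control were 11 and 8, in a fit that called 24.9% and 23.1% of all tested genes. The count under lefamulin was 4 without control replicate 3 or any lefamulin library.

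Of the 22 tested TGF-beta and YAP signal genes, 8 (36.4%, against 4.9% of all tested genes) were higher under tiamulin than under lefamulin. Against control, lefamulin raised 4 and lowered 3 (31.8%) and tiamulin raised 5 and lowered 1 (27.3%). Ccn1, a matricellular target of YAP that binds integrins, had 2051, 1920 and 1973 counts in control, 2035, 2256 and 2364 with lefamulin and 4013, 4530 and 4218 with tiamulin. The tiamulin libraries were far above the rest. Its log2(fold change) was 0.27 ± 0.07 (adjusted p = 0.0178) under lefamulin, 1.19 ± 0.07 (adjusted p = 7.00e-08) under tiamulin and 0.92 ± 0.07 (adjusted p = 6.74e-06) between them. Ankrd1, another YAP target, rose by 0.51 ± 0.06 and 1.26 ± 0.06 and differed by 0.75 ± 0.06 (adjusted p = 8.52e-06), and Ccn2 rose by 0.52 ± 0.06 under lefamulin and 1.12 ± 0.06 under tiamulin. The list as a whole did not rise under lefamulin, where 8 of the 22 genes had a log2(fold change) above 0, against 15 under tiamulin. Smad3, a transducer of TGF-beta signals, fell by 0.30 under lefamulin, and tiamulin gave 0.04 (adjusted p = 0.693). Ltbp3, which encodes a binding protein of latent TGF-beta, gave -0.38 ± 0.11 (adjusted p = 0.0463) under lefamulin, lost without control replicate 1 or 3 or any lefamulin library (0.0577 to 0.16). Tgfbr1, a TGF-beta receptor, fell by 0.41 under tiamulin, with an adjusted p of 0.0569 without control replicate 2. The 8 genes higher under tiamulin than under lefamulin became 5 when any 1 lefamulin library was left out. The 7 called under lefamulin became 13 without tiamulin replicate 2, where 24.9% of all tested genes were called. They became 3 without control replicate 3 or lefamulin replicate 2.

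**Figure D5:**
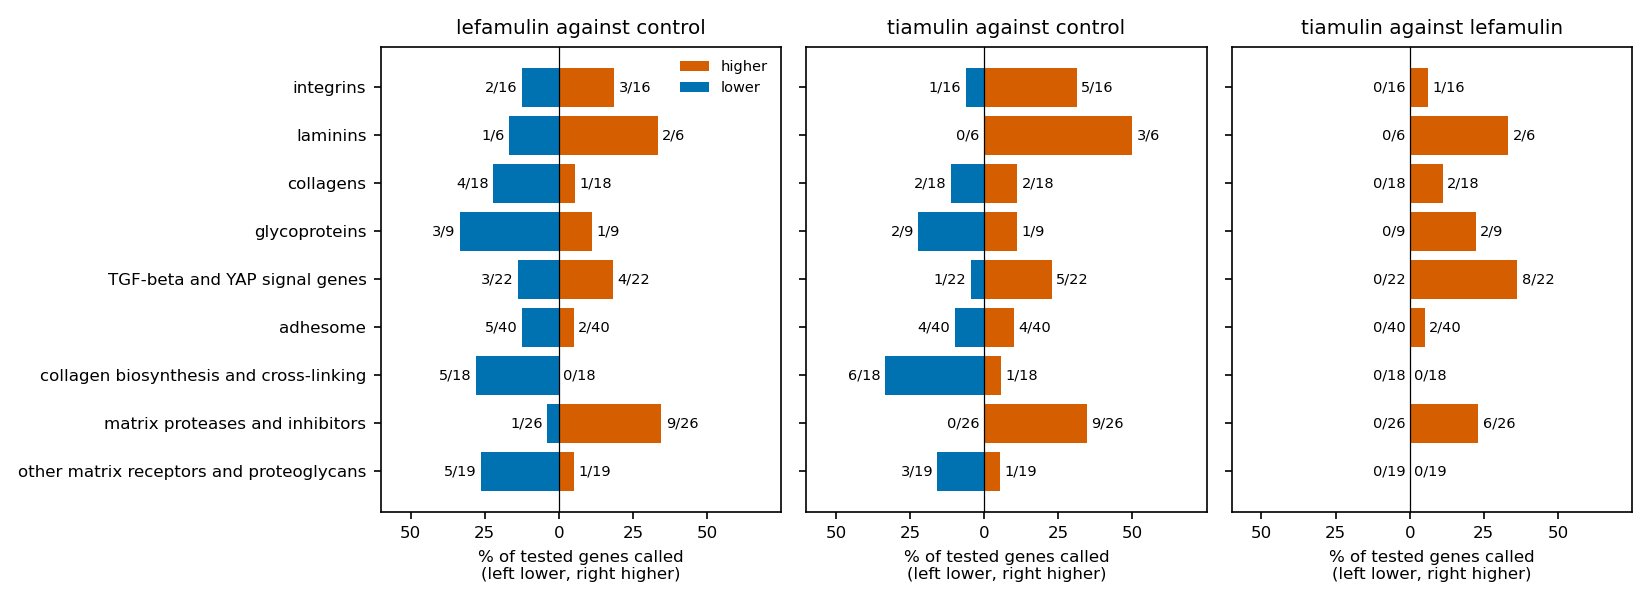
Share of tested genes (x axis, percent) called higher (orange, right) or lower (blue, left) in each comparison, for the 4 member families and the 5 lists of related genes, with counts beside the bars. In the comparison of tiamulin with lefamulin there are bars to the right only, with 8 of 22 for TGF-beta and YAP signal genes and 2 of 6 for laminins.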

How the data were processed

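RNA of Hepa1-6 cells was sequenced in 9 libraries, and groups were taken from the sample labels. Raw counts for each gene, as whole numbers without normalization, and FPKM values were deposited by the authors. Per the submitters' processing notes, the tools and versions were CASAVA 1.8, fastp, HISAT2 2.0.5, featureCounts 1.5.0-p3 and DESeq2 1.20.0, with build mm10. The strand setting is not given in the sources used here. Deposited FPKM values equalled count over length and a library total within 4.27e-05%. Gene positions are printed as deposited, and their build is uncertain, because only 1435 of 52036 nuclear genes and 3 of the 95 members have their GRCm38 position. RefSeq promoter coordinates are GRCm38.p6 and were not joined to them. Columns of the authors' own comparisons were not used.

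After filterByExpr and TMM scaling, edgeR 4.0.16 (R 4.3.3) gave robust quasi-likelihood tests from a single model of all 9 libraries that held only the group, with Benjamini-Hochberg adjustment over 14510 genes. Errors of log2(fold change) are SE. Levels between genes were compared by FPKM. The fit was tested on simulated data before use. Alternatives were DESeq2 1.42.0 and its size factors, limma 3.58.1 on log2(FPKM + 1) and log2(FPKM + 0.1), other count filters, only the 2 groups compared, a replicate block, GC and length offsets, and leaving out each library. The members and gene lists were chosen with earlier results of these data known. Members were named with per-library values, apart from items not reported here, when called in any comparison, when highest in a subgroup, or when partner chains of a called member, together with Itgb7 and Fbn1. From each list, at most 2 called genes per direction and comparison were named by size of change, some with their value under the other drug too. Depth limits members with few counts most.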

Additional observations from a re-analysis of the deposited data

How the results depend on the processing

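For lefamulin against control, 17 members were called in the 9 libraries, 26 with only the 2 groups compared and 6 when an absolute log2(fold change) above 1 was also required, and the count ranged from 15 to 29 when 1 library was left out (29 without tiamulin replicate 2). For tiamulin against control, 16 became 8 with limma on log2(FPKM + 0.1) and 8 with limma on log2(FPKM + 1), where only 29 members were tested, and 5 with the fold threshold, with 11 to 18 when 1 library was left out. For tiamulin against lefamulin, 7 became 12 with DESeq2, 13 with no filter on low counts, 12 with GC and length offsets, 4 with only the 2 groups compared and 0 with the fold threshold, with 4 to 12 when 1 library was left out. With the replicate number as a block, the counts were 16, 14 and 4, and with the block and the offsets together 24, 18 and 12. The shares of all tested genes called moved too. They were 13.1%, 16.4% and 4.9% in the fit of all 9 libraries, 24.9%, 23.1% and 8.79% without tiamulin replicate 2, and 23.8%, 27% and 13.1% with the offsets. For the other alternatives these shares are not given, so their counts are no result about the members. Same-numbered libraries of different groups deviated with correlations from -0.51 to 0.043, and differently numbered ones with correlations from -0.448 to 0.512. Since the deviations also followed GC content, these values cannot decide whether the replicate numbers pair the samples. For 41 called or singled-out values of single members, 749 comparisons with an alternative gave 685 with the same direction and side of the threshold, 64 no longer past it and 0 reversed. Alternatives that gave a gene no adjusted p value were not counted, and 28 of the 41 were the same in all that did. The 28 thus include Fbn1 under both drugs, which had no adjusted p value by DESeq2, by limma or with only the 2 groups compared. For 37 values of list genes, whose alternatives were chosen after seeing the data, 623 comparisons were the same, 74 were no longer past the threshold and 0 were reversed. The cause of these changes was not tested. Depth limits the 46 members with at most 17 counts.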

Other observations

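Some integrin and matrix genes lie outside the symbol pattern and were picked after their values were seen. Of 16 such genes looked at, 11 were tested, and 3 were called against control by edgeR's quasi-likelihood test. These were Spp1, Efemp2 and Tnxb, the last of which was tested only because it was high with drug. Of all tested genes 13.1% were called under lefamulin and 16.4% under tiamulin. The genes were picked by their values, so the count is no result. Abundant genes among the others were not called, namely Ecm1 (-0.13 under lefamulin and -0.16 under tiamulin), Mfge8 (0.04 and 0.13) and Tinagl1 (-0.06 and -0.22). Spp1, encoding the secreted integrin ligand osteopontin, fell by 0.31 (SE 0.05, adjusted p = 5.87e-04) under lefamulin and by 0.39 (SE 0.05, adjusted p = 6.50e-05) under tiamulin by edgeR's quasi-likelihood test, and the drugs differed by -0.08 (adjusted p = 0.355). Efemp2, encoding a fibulin that takes part in elastic fibre assembly, fell by 0.36 under lefamulin (SE 0.09, adjusted p = 0.0177), and tiamulin gave -0.22 (adjusted p = 0.123). Tnxb, encoding a tenascin, had 2, 1 and 4 counts in control, 1, 14 and 8 with lefamulin and 9, 13 and 12 with tiamulin. It reached the filter in no control library and was tested only because it was high with drug, so its call under tiamulin is not given as a result. The platelet integrin chain Itga2b, a partner of Itgb3, was not called under either drug (-0.03, adjusted p = 0.961, and 0.40, adjusted p = 0.28).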
